A study of Mus musculus with 25 samples.

Results

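The accessible chromatin of PD1+CD73- fetus/graft-specific CD8+ T cells (T_FGS) taken after pregnancy in previously sensitized mice, the subset called S+P C7, was compared with that of Sensitized T_FGS from mice that had not been mated. The members were the 4 S+P C7 and 4 Sensitized ATAC-Seq libraries as GEO labels them, 8 of the 25 libraries of the series, and every one of the 13527 merged peaks entered the comparison. The assay cuts open chromatin with a transposase, so the number of reads in a peak measures how accessible that stretch of DNA is. All mice were young adult C57BL/6 females (H-2b). Sensitized mice had rejected a skin graft from a male 2W-OVA.BALB/c donor (H-2d), and the S+P mice had rejected such a graft and were then mated with 2W-OVA.BALB/c males, with cells sorted within days of giving birth. Sensitized cells were taken a month or more after grafting. Donors and sires carried the Act-2W-OVA transgene, which is expressed throughout the body from an actin promoter, so T_FGS of both groups had met the same antigen on grafts, and those of the S+P group also during pregnancy. T_FGS were sorted with OVA:Kb tetramers from pooled spleen and lymph nodes. S+P T_FGS were further divided into C4 (PD1-), C5 (PD1+CD73+) and C7, whereas the labels give no PD1 or CD73 gate for Sensitized T_FGS. Pregnancy and the gate on PD1 and CD73 therefore cannot be told apart in this comparison. The comparisons of S+P C7 with S+P C4 and S+P C5 share the pregnancy and differ in the gate.

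As background, a CD8+ T cell that has cleared or rejected its target settles into memory, a state kept by factors such as TCF-1, LEF1, Bach2, Foxp1 and Satb1, with open regions at genes of lymphoid homing and survival. Effector and exhausted CD8+ T cells carry other open regions, many of them far from promoters, where T-bet, Eomes, NFAT, NR4A and AP-1 factors bind, and exhausted cells keep inhibitory receptors such as PD1, TIGIT, TIM-3 and CD39 along with the factors Tox and Maf. CD73, encoded by Nt5e, makes adenosine at the cell surface. ATAC-Seq reads such regions directly, but the gene with the nearest start is only a name for a peak and need not be the gene on which it acts.

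S+P C7 libraries held between 4789587 and 12638305 counts in peaks and Sensitized libraries between 10655540 and 15041041 (exact permutation p 0.0571, adjusted over 3 library measures 0.0857). Promoter peaks took 66.9% ± 0.508 (SD, n = 4) of the counts in S+P C7 and 65.9% ± 0.517 (n = 4) in Sensitized, with the same exact permutation p and adjusted p. Count-weighted GC content was 59.9% and 59.7% (exact permutation p 0.143). The 4 Sensitized libraries did not lie together. At the peaks that opened in S+P C7, the median normalized count (counts divided by the size factor of each library) was 211, 171, 78.0 and 94.4 in Sensitized replicates 1 to 4, and at the peaks that closed it was 207, 260.5, 402 and 398. Replicates 3 and 4 thus lay nearer than replicates 1 and 2 to the Naive libraries of unmated, ungrafted mice (38.6 to 44.3 and 434 to 461), while replicates 1 and 2 lay within the range of S+P C4. The counts of called peaks below are therefore also given without Sensitized replicates 3 and 4, and what set these libraries apart was not tested. A lower count at a peak in a bulk library can come from fewer cells with the peak open or from less opening per cell, and these cannot be told apart.

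**Figure D1:**
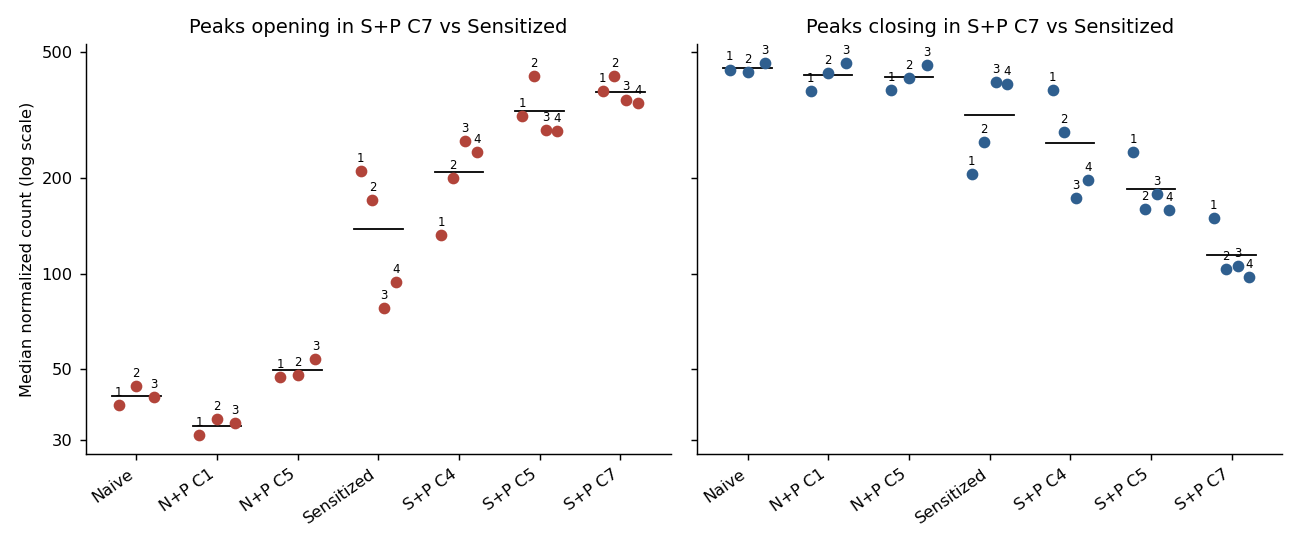
Median normalized count (log scale) over the 519 opening (left) and 1086 closing (right) peaks of S+P C7 vs Sensitized, one point per library with its replicate number, for all 7 groups; bars are group means. S+P C7 libraries sit at 346 to 420.5 on the left and 97.9 to 151 on the right by the choice of peaks, and Sensitized replicates 3 and 4 sit below replicates 1 and 2 on the left and above them on the right.

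The sequences of 2 opening and 3 closing peaks are given first, since most called peaks were such distal elements. They are intergenic or intronic peaks among the 10 described in each direction below, from the chromosomes printed here and with no exon letters in the window. Each line is the central 300 bases of the peak on the plus strand of GRCm39, read 5′ to 3′, and capitals mark letters that match an AP-1 (TGANTCA), TCF/LEF (CTTTGAA or CTTTGAT), T-box (AGGTGTGA), RUNX (TGTGGTT), NR4A (AAAGGTCA) or NFAT (TGGAAAA) motif on either strand.
Cfap298 opening peak, chr16:90750168-90750467, plus strand: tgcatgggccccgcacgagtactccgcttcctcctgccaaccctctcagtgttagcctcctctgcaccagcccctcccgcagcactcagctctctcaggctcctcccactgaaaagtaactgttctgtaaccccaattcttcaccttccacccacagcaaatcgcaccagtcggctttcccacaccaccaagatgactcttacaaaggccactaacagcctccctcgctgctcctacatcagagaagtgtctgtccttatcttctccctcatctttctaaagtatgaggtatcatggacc
Eps8l3 opening peak, chr3:107735196-107735495, plus strand: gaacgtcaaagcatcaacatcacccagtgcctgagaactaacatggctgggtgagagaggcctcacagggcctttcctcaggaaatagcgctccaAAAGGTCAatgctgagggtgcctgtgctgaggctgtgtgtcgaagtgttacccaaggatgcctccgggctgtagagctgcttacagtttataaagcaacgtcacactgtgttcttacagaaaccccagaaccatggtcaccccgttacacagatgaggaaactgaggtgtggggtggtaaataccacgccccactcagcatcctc
Fbxl21 closing peak, chr13:56655007-56655306, plus strand: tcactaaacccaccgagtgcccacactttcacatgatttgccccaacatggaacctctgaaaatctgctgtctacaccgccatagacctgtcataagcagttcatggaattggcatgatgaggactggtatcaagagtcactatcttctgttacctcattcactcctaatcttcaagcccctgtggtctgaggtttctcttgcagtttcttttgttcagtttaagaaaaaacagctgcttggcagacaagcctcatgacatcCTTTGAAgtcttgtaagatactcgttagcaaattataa
Foxp1 closing peak, chr6:99463182-99463481, plus strand: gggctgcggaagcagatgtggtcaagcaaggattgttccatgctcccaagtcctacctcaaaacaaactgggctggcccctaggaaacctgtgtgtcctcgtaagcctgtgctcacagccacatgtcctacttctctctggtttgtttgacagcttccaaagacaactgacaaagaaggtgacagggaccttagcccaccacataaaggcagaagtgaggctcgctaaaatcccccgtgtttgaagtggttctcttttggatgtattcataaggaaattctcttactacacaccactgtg
Il9 closing peak, chr13:56624588-56624887, plus strand: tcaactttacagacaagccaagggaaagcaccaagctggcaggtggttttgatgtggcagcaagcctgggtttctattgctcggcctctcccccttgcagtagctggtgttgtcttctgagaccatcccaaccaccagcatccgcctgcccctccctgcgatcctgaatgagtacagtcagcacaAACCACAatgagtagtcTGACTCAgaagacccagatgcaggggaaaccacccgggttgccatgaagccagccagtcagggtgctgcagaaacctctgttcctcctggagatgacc
The Eps8l3 window held an NR4A match at base 96 counted from the first base shown, and the Cfap298 window held none of the 6 motifs. Among the closing windows, Fbxl21 held a TCF/LEF match at base 263, Il9 held RUNX and AP-1 matches at bases 186 and 203, and Foxp1 held none. A match describes the letters and does not show that a factor binds.

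Of the 13527 peaks, 1605 passed the thresholds of the study's methods (DESeq2 adjusted p under 0.1 and absolute log2 fold change above 0.9), which is 11.9% of all peaks. Accessibility rose at 519 of them (3.84% of all peaks), called opening, and fell at 1086 (8.03%), called closing. The median log2 fold change was 1.32 over opening and -1.42 over closing peaks. In the test as reported, opening peaks reached further, with 22 above a log2 fold change of 3 and a highest value of 5.13. The lowest value among closing peaks was -2.76. This difference in reach depended on the normalization. With the loess offsets described below, the opening peak nearest to Eps8l3 went from 5.13 to 3.34. Closing peaks near Cd96 and Dusp22 then stood at -3.33 and -2.82. Normalized counts of the 4 S+P C7 libraries lay outside the range of the 4 Sensitized libraries at 427 opening peaks (82.3%) and 740 closing peaks (68.1%), against 25.5% of all peaks. Without Sensitized replicates 3 and 4 the test called 942 peaks, 275 opening and 667 closing, among them 258 of the 519 opening and 579 of the 1086 closing peaks. Under loess offsets, which remove the trend of each library against the mean count, the split moved to 239 opening and 1199 closing, so 16.6% of calls were opening against 32.3% in the test as reported. Of the 1605 called peaks, 40 changed sign with loess offsets and 13 without Sensitized replicates 3 and 4.

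**Figure D2:**
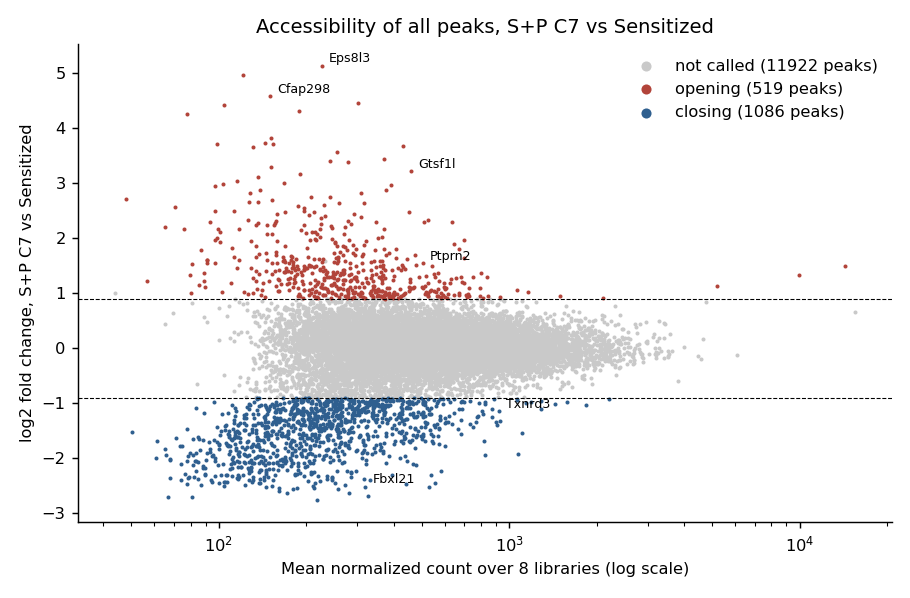
Log2 fold change of S+P C7 over Sensitized against the mean normalized count of the 8 libraries (log scale), one point per peak; dashed lines are the fold threshold of 0.9 on either side. The 519 opening peaks reach 5.13 on the log2 scale (Eps8l3), and the 1086 closing peaks reach -2.76.

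Called peaks lay mostly away from promoters. Promoter peaks, whose midpoint is within 1000 bp of a protein-coding transcript start, made up 56.7% of all peaks but 7.51% of opening and 11.3% of closing peaks. Of the 2920 intron peaks 9.73% opened and 16.7% closed, and of the 2650 intergenic peaks 6.91% opened and 16.3% closed, while 0.508% of the 7670 promoter peaks opened and 1.60% closed. The median distance to the nearest protein-coding start was 30291 bp for opening peaks and 1596 bp for all peaks. Opening peaks were also shorter, with a median length of 640 bp against 795 bp for closing and 963 bp for all peaks. Nearest genes numbered 431 for opening and 787 for closing peaks.

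Among opening peaks, the 10 of smallest adjusted p whose groups did not overlap were singled out, and so were 10 closing peaks, so that the absence of overlap at them is part of the choice. Those of largest change were low in every Sensitized library. The values below are in the order of the replicate numbers, first the 4 Sensitized and then the 4 S+P C7 libraries, and fold changes are log2 values with their SE. An intergenic peak nearest to Eps8l3, of an actin-regulating family (chr3:107735085-107735605), held 24.2, 11.0, 7.45 and 7.59 in Sensitized and 359, 318, 396 and 683 in S+P C7 (5.13 ± 0.49, adjusted p 1.44e-22, or 3.34 with loess offsets). Near Ppp2r5c, which encodes a regulatory subunit of the phosphatase PP2A, an intergenic peak (chr12:110352524-110353036) held 5.77, 7.85, 3.44 and 13.0 and 311, 342, 200.5 and 87.1 (4.96 ± 0.49, adjusted p 5.44e-21, or 2.28 with loess offsets). Within S+P C7 the Eps8l3 peak was highest and the Ppp2r5c peak lowest in replicate 4. An intron peak of Ptpn13, which encodes a tyrosine phosphatase (chr5:103590017-103590472), held 92.3, 100.4, 66.5 and 96.5 and 441, 497, 356 and 314 (2.18 ± 0.21, adjusted p 7.70e-22, or 1.12 with loess offsets). A peak over untranslated exon sequence of Stx6, which encodes a vesicle-fusion protein, went from 118, 74.5, 70.5 and 90.0 to 639.6, 629.9, 349.6 and 566 (2.63 ± 0.25, adjusted p 2.92e-22). In both peaks the lowest S+P C7 value came from replicate 3 or 4. Other opening peaks among the 10 of smallest adjusted p were nearest to Cfap298, Gtsf1l, Ptprn2, Tigit and Nedd4l, with log2 fold changes from 1.54 (Ptprn2) to 4.57 (Cfap298, or 2.213 with loess offsets).

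Closing peaks had a median log2 fold change of -1.42, against 1.32 over opening peaks. An intron peak of Foxp1, a factor that keeps T cells quiescent (chr6:99462925-99463737), held 351, 344, 492 and 449.6 in Sensitized and 114, 91.9, 58.0 and 57.2 in S+P C7 (-2.35 ± 0.21, adjusted p 1.07e-25). A peak near the cytokine gene Il9 (chr13:56624395-56625079) held 457, 474, 526 and 447 and 133, 61.3, 77.9 and 113 (-2.27 ± 0.21, adjusted p 3.48e-24). The Fbxl21 peak lay on the same chromosome and was the closing peak of smallest adjusted p (-2.51 ± 0.17, adjusted p 1.41e-46). At the Il9 peak Sensitized replicates 3 and 4 lay close to replicates 1 and 2, and at the Foxp1 peak they were somewhat higher. Promoters were a small part of these 10 peaks. The promoter peak of Txnrd3, a thioredoxin reductase gene, held 1164, 1415, 1257 and 1251 and 532, 625, 527 and 610.2 (-1.15 ± 0.09, adjusted p 2.76e-33), and that of Pcbp3, which encodes an RNA-binding protein, held 819, 892, 909.9 and 856 and 413, 305, 424 and 343 (-1.23 ± 0.11, adjusted p 8.04e-24). The Sensitized libraries lay close together at both promoters. The remaining closing peaks of this group, nearest to Smad7, Smap2, Dusp22, Foxn3 and Gpcpd1, had log2 fold changes between -2.39 (Dusp22) and -1.04 (Gpcpd1).

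Several loci held many called peaks in 1 direction. Among opening peaks, 5 of the 8 peaks nearest to Rps6kb1 (ribosomal S6 kinase) were called (1.01 to 1.49 on the log2 scale), 4 of them in introns of the neighbouring gene Vmp1. At the one of largest change (chr11:86497475-86497820) counts were 161, 135, 39.0 and 56.9 in Sensitized and 262, 294, 285 and 256 in S+P C7 (1.49 ± 0.37, adjusted p 4.37e-04, or 0.35 with loess offsets and 0.89 without Sensitized replicates 3 and 4). The 2 higher Sensitized values came from replicates 1 and 2, and none of the 5 peaks was called without replicates 3 and 4, whereas 1 was with loess offsets. Near Ppp2r5c 4 of 8 peaks opened (2.28 to 4.96), all of them within 1 stretch of chromosome 12 between 110341604 and 110356663, and all 4 were also called without Sensitized replicates 3 and 4, against 3 with loess offsets. Fasl, whose product kills target cells through Fas, had 4 opening peaks of 16 (1.29 to 3.70), 3 of which were called without those replicates and 1 with loess offsets. The one farthest from its start (chr1:161514626-161515189) held 11.0, 8.63, 13.2 and 22.8 and 223, 320.0, 96.1 and 92.2 (3.70 ± 0.44, adjusted p 1.21e-14, or 1.56 with loess offsets), with no overlap of the groups, and the other 3 lay closer to the gene with smaller changes.

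Closing peaks gathered at more genes, 25 of which had at least 4. The chromatin organizer Satb1 had 9 closing peaks of 12 (-2.35 to -0.94), and Btg1, an antiproliferative gene of resting lymphocytes, had 9 of 14 (-2.31 to -0.92). At the Satb1 peak of smallest p, between genes (chr17:52185861-52188193), counts were 476, 624, 924 and 927 in Sensitized and 256, 197, 227 and 166 in S+P C7 (-1.80 ± 0.23, adjusted p 1.20e-12). Sensitized replicates 3 and 4 were the higher ones here, and without them 4 of the 9 Satb1 peaks and 2 of the 9 Btg1 peaks were called. Bach2, a repressor needed for memory, had 6 closing peaks of 13, all in its introns (-2.45 to -1.10). The one of largest change (chr4:32289841-32292403) held 777, 809, 1094 and 1065 and 261, 155, 149 and 119.5 (-2.45 ± 0.27, adjusted p 1.11e-16), with every S+P C7 value below every Sensitized value, and all 6 were called without Sensitized replicates 3 and 4. Ccr7, the receptor for entry into lymph nodes, had 5 of 6 (-1.86 to -1.29), Lef1 5 of 13 (-2.21 to -1.13), Foxp1 5 of 15 (-2.35 to -0.96) and Tgfbr2, a receptor chain for TGF-beta, 5 of 13 (-2.34 to -1.10). Without Sensitized replicates 3 and 4 the calls numbered 4 for Ccr7, 2 for Lef1, 4 for Foxp1 and 4 for Tgfbr2. In introns of Wwox both directions were seen, with 6 closing peaks (-2.36 to -0.95), 3 of them called without those replicates, and 2 opening ones. The larger opening peak (chr8:115704362-115705151), singled out after its values were seen, held 15.6, 43.9, 21.2 and 26.0 and 805, 1011, 355 and 142 (4.44 ± 0.57, adjusted p 8.99e-13, or 2.41 with loess offsets).

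The peaks were then grouped by lists of genes, which were drawn up with earlier results of these data known, so their counts are descriptions. Most lists held mainly peaks outside promoters (27 of 37 for co-inhibitory receptors, 130 of 146 for memory and stem-type regulators), whereas 56.7% of all peaks were promoter peaks. Shares over intron peaks (9.73% opening, 16.7% closing) and intergenic peaks (6.91% and 16.3%) are therefore nearer comparisons for the lists below than those over all peaks. Called peaks nearest to co-inhibitory receptor genes were mostly opening. Of 37 peaks of this list 9 opened (24.3%) and 2 closed (5.41%), against 3.84% and 8.03% of all peaks. The median log2 fold change over the 37 was -0.11 (0.04 without Sensitized replicates 3 and 4), and over all peaks 0.0027. The counts were 4 opening and 3 closing with loess offsets, and 5 and 2 without Sensitized replicates 3 and 4. Opening peaks were nearest to Havcr2 (TIM-3, 3 peaks), Pdcd1 (PD1, 2 peaks), Entpd1 (CD39, 2 peaks), Tigit and Ctla4, and closing peaks to Nt5e and Cd96. Pdcd1 and Nt5e encode the proteins by which C7 was sorted. Of the 5 Pdcd1 peaks the one of smallest adjusted p (chr1:94019291-94020190) was not called and lower in S+P C7 (526, 806, 689 and 687 in Sensitized, 418, 322, 524 and 389.7 in S+P C7; -0.71 ± 0.18, adjusted p 6.57e-04), with no overlap. In an intron of Tigit (chr16:43481871-43482667) counts were 72.1, 56.5, 57.3 and 77.6 in Sensitized and 324, 237, 224 and 225 in S+P C7 (1.94 ± 0.19, adjusted p 2.43e-21, or 0.95 with loess offsets). An intron peak of Entpd1 (chr19:40654254-40654655) held 117, 64.3, 7.45 and 25.5 and 351, 294, 369 and 272 (2.59 ± 0.54, adjusted p 1.64e-05, or 1.23 with loess offsets). Sensitized libraries were uniformly low at the Tigit peak, whereas at Entpd1 they spread from under 10 to over 100 counts, with replicate 1 highest. At Nt5e an intron peak of the neighbouring gene Snx14 closed, from 581, 910.1, 677 and 742 to 434, 364, 371 and 344 (-0.94 ± 0.18, adjusted p 1.33e-06), and it was no longer called without Sensitized replicate 2 (log2 fold change -0.82) or without S+P C7 replicate 4 (-0.90). The Ctla4 peak over a coding exon (chr1:60950459-60953126) held 352, 434, 569 and 627 and 1098, 1248, 792 and 619 (0.92 ± 0.22, adjusted p 2.09e-04). Its groups overlapped, and it fell under the fold threshold without Sensitized replicate 1 (0.79) or 2 (0.86), without S+P C7 replicate 1 (0.84) or 2 (0.75), and with size factors from promoter peaks (0.88). In an intron of Cd96, a receptor of the TIGIT family, counts were 56.5, 82.4, 298 and 245 and 61.2, 15.3, 9.94 and 34.3 (-2.45 ± 0.50, adjusted p 8.74e-06, or -1.13 without Sensitized replicates 3 and 4), with some overlap. Of regulators associated with exhaustion, 9 of 82 peaks opened (11.0%) and 4 closed (4.88%), with a median of 0.19 (0.06 with loess offsets and -0.0076 without Sensitized replicates 3 and 4). The counts were 4 opening and 6 closing with loess offsets, and 3 and 6 without Sensitized replicates 3 and 4, so that closing calls then outnumbered opening ones. Tox2 opened at all 3 of its peaks, its promoter peak going from 98.6, 87.9, 206 and 202 to 612, 718, 305 and 263 (1.67 ± 0.30, adjusted p 4.98e-07). Tox, a factor of exhausted T cells, moved both ways, with 2 opening and 3 closing peaks of 8. The Tox intron peak of smallest p closed, from 286, 329, 259 and 286 to 149, 128, 118 and 127 (-1.14 ± 0.14, adjusted p 1.43e-14), with no overlap. Single opening peaks were nearest to Maf and Ikzf2 and 2 to Bhlhe40, and the 1 closing peak of Nfatc1 lay in an intron of Atp9b (152, 158, 574 and 503 in Sensitized and 139, 49.4, 39.8 and 56.6 in S+P C7; -2.27 ± 0.44, adjusted p 2.85e-06, or -1.10 without Sensitized replicates 3 and 4).

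Called peaks near effector genes were also mostly opening. Of 48 peaks nearest to effector regulators 8 opened (16.7%) and 1 closed (2.08%), of 55 nearest to cytotoxic and cytokine genes 18 opened (32.7%) and 2 closed (3.64%), and of 25 nearest to NK-type receptor genes 4 opened (16.0%) and none of the 25 closed. The median was 0.20 for effector regulators (0.03 with loess offsets and 0.07 without Sensitized replicates 3 and 4), 0.47 for cytotoxic and cytokine genes (0.38 with loess offsets and 0.15 without Sensitized replicates 3 and 4) and 0.32 for NK-type receptor genes (0.09 with loess offsets and 0.19 without Sensitized replicates 3 and 4). For effector regulators the counts were 4 opening and 1 closing with loess offsets, and 2 and 0 without Sensitized replicates 3 and 4. The same settings gave 9 and 6 opening peaks for cytotoxic and cytokine genes and 0 and 1 for NK-type receptors. Eomes, a T-box factor of effector and exhausted CD8+ T cells, had 3 opening peaks of 8, and Tbx21, which encodes T-bet, had 3 of 4. A distant Eomes peak (chr9:118146456-118146934) held 23.6, 23.5, 12.6 and 20.1 in Sensitized and 354, 388, 275 and 111 in S+P C7 (3.82 ± 0.49, adjusted p 5.91e-13, or 1.59 with loess offsets). In a Tbx21 intron (chr11:97000325-97000916) counts were 135, 104, 28.7 and 23.9 and 253, 232, 207 and 194 (1.61 ± 0.42, adjusted p 6.61e-04). The Eomes peak was low in all 4 Sensitized libraries, while at Tbx21 Sensitized replicates 1 and 2 were already higher than 3 and 4, and the Tbx21 value dropped to 0.14 with loess offsets and to 0.89 without replicates 3 and 4. Near Id2, a regulator of effector differentiation, a peak rose from 219, 132, 69.4 and 77.0 to 504, 346, 396 and 463 (1.78 ± 0.32, adjusted p 4.88e-07). Of the cytotoxic and cytokine list, opening peaks were nearest to Gzma (granzyme A, 3 peaks), Il10 (3), Ccl3, Ccl4 and Ccl5 (chemokines, 2 each), Prf1 (perforin), Ifng and Fasl. Each peak is counted once, by its nearest start, and the Ccl3 peak of smallest adjusted p went from 626, 487, 291 and 298 to 868, 1067, 929.5 and 1019 (1.19 ± 0.20, adjusted p 7.33e-08), or 0.80 without Sensitized replicates 3 and 4. Ifng had 1 opening and 1 closing peak. The closing one, 192700 bp from its start (chr10:118469223-118470080), fell from 474, 674, 984 and 900.3 to 265, 136, 149 and 151 (-2.10 ± 0.27, adjusted p 4.20e-13). Near Il21, a cytokine gene, a peak fell from 769, 1011, 1209 and 1244 to 521, 305, 359.5 and 432 (-1.38 ± 0.17, adjusted p 4.65e-14). The promoter peak of Slamf7, a receptor of NK and cytotoxic T cells, held 69.8, 40.8, 14.3 and 11.4 and 209, 260.5, 189 and 110.0 (2.49 ± 0.49, adjusted p 4.71e-06), all S+P C7 values being higher, and its fold change was 0.55 with loess offsets. At the Klrc1 promoter (NKG2A) counts of 304, 252, 76.8 and 112 and 347, 407, 471 and 380.1 gave 1.11 ± 0.36, adjusted p 0.00791, which was not called without Sensitized replicate 3 (0.85), without replicates 3 and 4 (0.53) or with loess offsets (0.37).

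Called peaks near memory and lymphoid homing genes were mostly closing. Of 146 peaks nearest to memory and stem-type regulators 35 closed (24.0%) and 4 opened (2.74%), and of 57 nearest to receptors of lymphoid homing and of naive or memory cells 16 closed (28.1%) and 2 opened (3.51%). The medians were -0.33 and -0.24. The first list gave 2 opening and 36 closing with loess offsets, and 2 and 26 without Sensitized replicates 3 and 4, and the second 1 opening and 17 closing with loess offsets, and 1 and 12 without Sensitized replicates 3 and 4. Closing peaks of the first list were nearest to 11 genes, among them Satb1, Bach2, Lef1, Foxp1, Klf3, Tcf7, Foxo1, Myb and Bcl6. Near Tcf7, which encodes TCF-1, an intergenic peak (chr11:52204345-52205747) held 953, 898, 921 and 864 in Sensitized and 535, 417, 427 and 451 in S+P C7 (-0.98 ± 0.12, adjusted p 2.10e-14). A peak 173120 bp from the start of Lef1 (chr3:130730644-130730954) held 110.2, 203, 236 and 223 and 80.8, 40.9, 53.0 and 40.7 (-1.83 ± 0.27, adjusted p 8.42e-10). At both, every S+P C7 value was below every Sensitized value, and at Tcf7 the Sensitized libraries were close to each other. Ets1, an ETS factor, had 2 closing peaks and 1 opening peak of 22, with an intron peak falling from 729.7, 766, 768 and 736 to 398, 398, 396 and 355 (-0.96 ± 0.10, adjusted p 4.54e-20) and another rising from 197, 159, 105 and 116 to 423, 606, 351 and 304 (1.54 ± 0.25, adjusted p 3.18e-08). In the second list the Il7r peak (chr15:9532789-9534060), near the gene of the IL-7 receptor that sustains memory cells, held 507, 563, 544 and 632 and 147, 106, 220.4 and 173 (-1.80 ± 0.22, adjusted p 5.77e-14). The Ccr7 peak 8147 bp from its start held 287, 298, 592 and 493 and 179, 104, 81.2 and 92.8 (-1.86 ± 0.27, adjusted p 1.80e-10). S1pr1, the receptor for leaving lymphoid organs, had 3 closing peaks and 1 opening peak, the opening one rising from 249, 202, 126 and 150.2 to 492, 572, 456 and 422 (1.42 ± 0.21, adjusted p 3.46e-10). Among receptors for tissue and inflammatory homing 9 of 42 peaks opened (21.4%), with Cx3cr1 (3), Cxcr4, Cd44 and Itgb1 among the nearest genes, and 5 closed (11.9%), nearest to Cxcr4, Gpr15 and Ccr8. Its median was 0.10, or -0.06 with loess offsets and -0.14 without Sensitized replicates 3 and 4, so its direction turned. The counts were 2 opening and 5 closing with loess offsets, and 4 and 6 without Sensitized replicates 3 and 4. In an intron of Cx3cr1, a receptor of effector cells, counts were 127, 94.2, 72.8 and 70.5 in Sensitized and 238, 400.0, 302 and 140.5 in S+P C7 (1.56 ± 0.32, adjusted p 9.61e-06; 0.69 with loess offsets), and at the promoter of Gpr15, a gut homing receptor, 163, 264, 372 and 348 and 115, 81.7, 64.6 and 58.5 (-1.84 ± 0.34, adjusted p 1.34e-06). The groups did not overlap at either peak. Cell survival genes had 3 closing peaks of 24 (12.5%) and no opening one, with a median of -0.02 (-0.01 with loess offsets and -0.09 without Sensitized replicates 3 and 4). The counts were 0 opening and 3 closing with loess offsets, and 0 and 2 without Sensitized replicates 3 and 4. They were nearest to Bcl2 (2) and Bid, the Bcl2 intron peak going from 305, 299.7, 409.9 and 468 to 168, 141, 151 and 115 (-1.37 ± 0.19, adjusted p 2.70e-11).

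**Figure D3:**
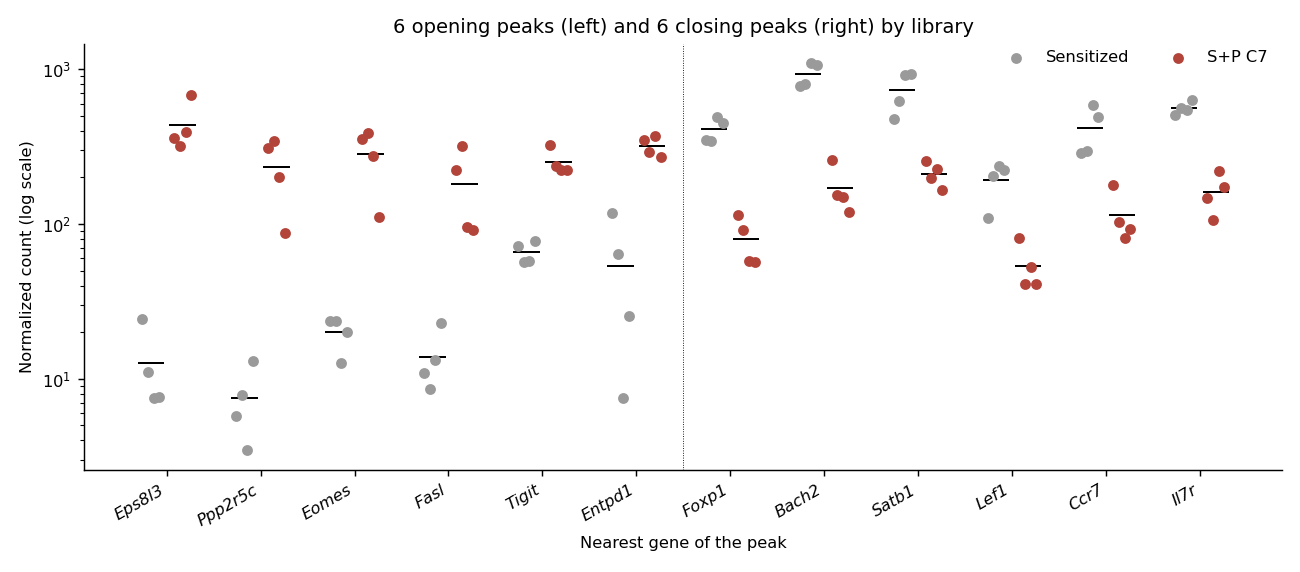
Normalized counts (log scale) of 6 opening and 6 closing peaks, named by nearest gene, with one point per library and bars at group means (n = 4 each). S+P C7 points (red) lie above all Sensitized points (grey) on the left and below them on the right; Entpd1 shows the widest Sensitized spread, from 7.45 to 117.

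Of the signaling lists, that of the TGF-beta pathway had the largest share of closing peaks. Of 56 peaks nearest to TGF-beta receptors and Smads 19 closed (33.9%) and 1 opened (1.79%), with a median of -0.41. The counts were 1 opening and 20 closing with loess offsets, and 0 and 14 without Sensitized replicates 3 and 4. Closing peaks were nearest to Smad7 (6) and Tgfbr2 (5), an inhibitor and a receptor of the pathway, to Ski (3), a repressor of Smads, and to Smad4, Acvr2a and Tgfbr3. In a Ski intron (chr4:155282180-155282734) counts were 267, 268, 335 and 338 in Sensitized and 69.7, 64.7, 86.2 and 67.4 in S+P C7 (-2.08 ± 0.22, adjusted p 2.10e-18), and the Tgfbr2 peak of largest change, 11889 bp from the gene's start (chr9:116016443-116016936) held 132, 130.2, 279.8 and 246 and 68.0, 39.2, 19.9 and 26.7 (-2.34 ± 0.38, adjusted p 2.90e-08). Neither peak overlapped between the groups. Among cytokine receptors 5 of 56 peaks opened (8.93%) and 5 closed (8.93%), with a median of -0.02 (-0.04 with loess offsets and -0.19 without Sensitized replicates 3 and 4). The counts were 4 opening and 5 closing with loess offsets, and 2 and 4 without Sensitized replicates 3 and 4. Ifnar1, a chain of the type I interferon receptor, opened at 2 peaks, the stronger rising from 157, 115, 123 and 93.8 to 431, 523, 311 and 266 (1.64 ± 0.21, adjusted p 1.20e-12), and Ifngr2, a chain of the interferon-gamma receptor, closed from 236, 231, 601 and 517 to 149.7, 97.0, 77.9 and 62.9 (-2.03 ± 0.33, adjusted p 3.99e-08, or -1.27 without Sensitized replicates 3 and 4). Of 42 peaks of Jak, Stat and Socs genes 2 opened (4.76%), in introns of Stat3 (2.14 ± 0.37, adjusted p 2.00e-07, or 1.28 with loess offsets) and Jak2 (1.28 ± 0.37, adjusted p 0.00228, or 0.77 with loess offsets and 0.75 without Sensitized replicates 3 and 4), and none of the 42 closed, with a median of -0.08 (-0.10 with loess offsets and -0.05 without Sensitized replicates 3 and 4). The counts were 1 opening and 0 closing with loess offsets, and 1 and 2 without Sensitized replicates 3 and 4. The Jak2 peak held 343, 289.5, 104 and 138 and 599, 577, 524 and 425, so Sensitized replicates 1 and 2 were nearer to S+P C7, and its fold change was 0.77 with loess offsets and 0.75 without Sensitized replicates 3 and 4. T-cell receptor signaling genes had 6 opening (6.45%) and 8 closing (8.60%) peaks of 93, opening at Fyn (3), Ptpn22 (2) and Cd6 and closing at Prkcq (4), Ptprc (2) and Rasgrp1 (2), with a median of 0.0028 (-0.03 with loess offsets and -0.04 without Sensitized replicates 3 and 4). The counts were 5 opening and 8 closing with loess offsets, and 0 and 4 without Sensitized replicates 3 and 4. None of the 6 opening calls was among the 4 calls of this list without Sensitized replicates 3 and 4, all of which were closing. Prkcq, the kinase PKC-theta, fell from 407, 385, 479.9 and 468 to 170.1, 177, 194 and 248 at its peak of smallest adjusted p (-1.13 ± 0.16, adjusted p 4.05e-11). Anergy and diacylglycerol kinase genes had 3 opening (6.38%) and 4 closing (8.51%) peaks of 47, all 4 closing ones at the ubiquitin ligase gene Cblb, with a median of -0.11 (-0.16 with loess offsets and -0.02 without Sensitized replicates 3 and 4), and 0 opening and 5 closing with loess offsets, and 0 and 2 without Sensitized replicates 3 and 4, where 1 of the 4 Cblb calls was kept. In a Cblb intron (chr16:51963131-51964340) counts fell from 493, 538, 974 and 1022 to 373, 286, 172 and 133 (-1.65 ± 0.32, adjusted p 2.77e-06, or -1.10 without Sensitized replicates 3 and 4). The AP-1 family list had 9 closing peaks of 46 (19.6%) and 0 opening, but 6 of the 9 were those of Bach2 and 2 of Bach1, both repressors, and the other was nearest to Atf3. The median of this list was -0.09 (-0.15 with loess offsets and -0.14 without Sensitized replicates 3 and 4), and its counts were 0 opening and 10 closing with loess offsets, and 0 and 6 without Sensitized replicates 3 and 4. Co-stimulatory and TNF receptor genes had 3 opening (6.12%) and 3 closing (6.12%) peaks of 49, with a median of 0.01 (-0.11 with loess offsets and -0.10 without Sensitized replicates 3 and 4). The counts were 1 opening and 3 closing with loess offsets, and 1 and 1 without Sensitized replicates 3 and 4. The promoter peak of Tnfrsf9 (4-1BB) held 1297, 1175, 784 and 855 and 1982, 2274, 2129 and 1512 (0.94 ± 0.17, adjusted p 3.40e-07). It was not called without Sensitized replicate 3 (0.83) or 4 (0.86), without both (0.67), without S+P C7 replicate 2 (0.86), or with size factors from promoter peaks (0.90).

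**Figure D4:**
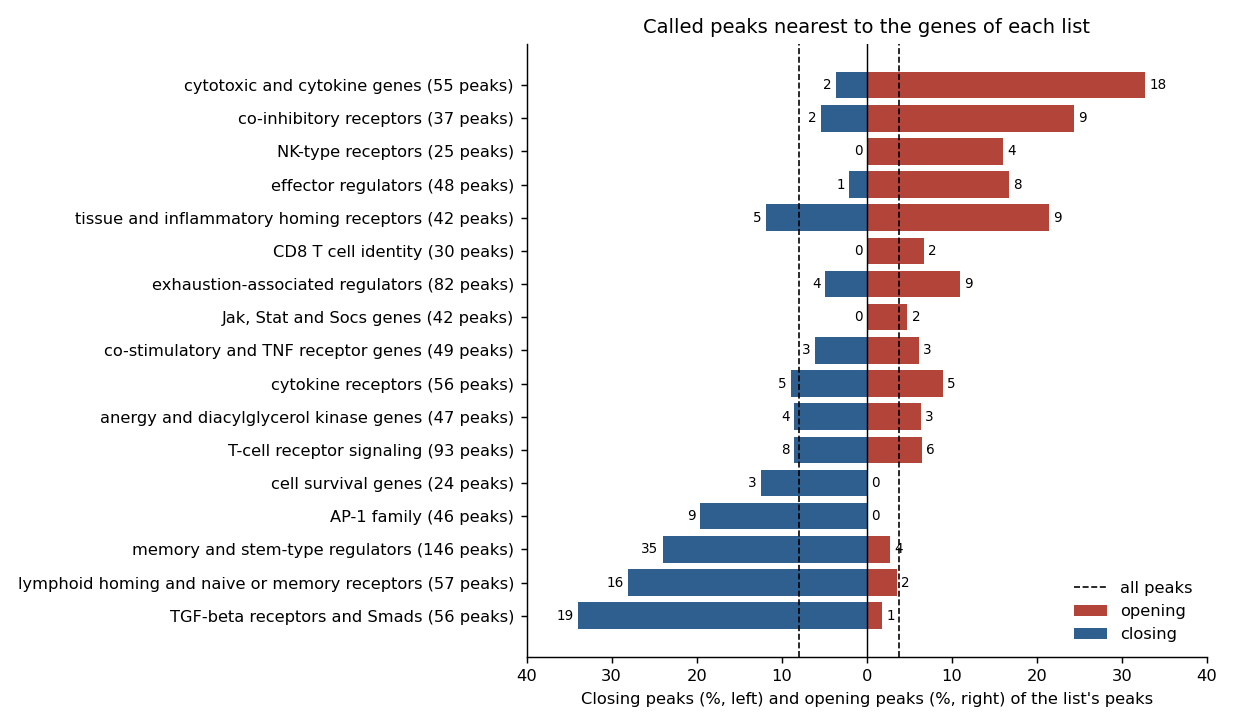
Share of the peaks nearest to the genes of each list that closed (left, blue) or opened (right, red) in S+P C7 vs Sensitized, with the numbers of peaks at the bars and dashed lines at the shares over all peaks (8.03% and 3.84%). Cytotoxic and cytokine genes reach 32.7% opening and TGF-beta receptors and Smads 33.9% closing, and lists with under 20 peaks are left out. The dashed lines include promoter peaks, which rarely changed and made up a smaller part of the lists than of all peaks.

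Cell type markers were read at promoters. CD8 T cell genes had promoter peaks at 6 of 9 genes (Cd3d, Cd3e, Cd3g, Cd8a, Lck and Runx3), with summed normalized counts from 4099.5 to 4413 in S+P C7 and from 2958 to 4612 in Sensitized, and none of these promoter peaks was called. Of all 30 peaks nearest to CD8 T cell genes, with a median of 0.29 (0.21 with loess offsets and 0.05 without Sensitized replicates 3 and 4), 2 opened, at Cd2 and Cd8a, against 1 with loess offsets and 0 without Sensitized replicates 3 and 4. The Cd8a peak (0.94 ± 0.39, adjusted p 0.0365) was not called without Sensitized replicate 3 (0.66) or 4 (0.74), without both (0.31), without S+P C7 replicate 3 (0.82), with loess offsets (0.51) or with size factors from promoter peaks (0.90). None of the 8 B cell, 10 myeloid, 4 CD4 T cell or 8 erythroid and platelet markers had a promoter peak, and the 0, 1, 2 and 1 peaks nearest to them were not called. Of 6 NK cell markers 1 had promoter peaks, Nfil3, a factor that T cells also use, whose 2 promoter peaks summed to 1011 to 1124 in S+P C7 and 739 to 886 in Sensitized. The smaller of them was the 1 called peak of the 11 nearest to NK cell markers (0 with loess offsets), whose median was 0.24. It rose from 139, 100.4, 41.3 and 73.8 to 301, 363, 222 and 153 (1.55 ± 0.34, adjusted p 4.56e-05; 0.43 with loess offsets).

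Of 20 genes listed for their roles, all of them picked with earlier results of these data known, 13 had a promoter peak, and at the one with the highest mean count of each gene 0 were called. Log2 fold changes ran from -0.86 (Ccr7) to 0.86 (Eomes), and 12 passed the adjusted p alone, 6 lower and 6 higher in S+P C7, where 52.9% of all peaks passed it. At the Eomes promoter counts were 754, 673, 428 and 421 in Sensitized and 1126, 1226, 986 and 798 in S+P C7 (0.86 ± 0.17, adjusted p 8.15e-06). The Ccr7 promoter held 637, 561, 798 and 673 and 372, 424, 349.6 and 328 (-0.86 ± 0.15, adjusted p 2.66e-07), the Il7r promoter 237, 222, 288 and 295 and 125, 112, 177 and 169.7 (-0.83 ± 0.16, adjusted p 4.44e-06), and the Nt5e promoter 334, 494, 453 and 448 and 198, 283, 273 and 304 (-0.71 ± 0.14, adjusted p 7.33e-06). At all 4 promoters the groups did not overlap, which held for 25.5% of all peaks. Nor did they at the Satb1, Nfatc1 and Nfat5 promoters, whereas they overlapped at those of Ctla4, Lef1, Tox, Maf, Tcf7 and Tigit. The changes at the 4 promoters stayed under the fold threshold of 0.9 in the test as reported. Leaving out 1 library took the Eomes promoter to between 0.95 and 1.03 without Sensitized replicate 1 or 2 or S+P C7 replicate 4. It was 0.53 without Sensitized replicates 3 and 4. The Ccr7 and Il7r promoters also passed the threshold in some settings, reaching -0.94 and -0.93. The Tox promoter (-0.75 ± 0.18, adjusted p 1.75e-04) did so without Sensitized replicate 1 (-0.91). The Satb1 promoter was lower in S+P C7 as well (-0.75 ± 0.14, adjusted p 2.93e-06). The Tigit promoter (0.24 ± 0.12, adjusted p 0.077), the Maf promoter (0.24 ± 0.12, adjusted p 0.0986) and the Nfat5 promoter (0.26 ± 0.12, adjusted p 0.0706) were each higher on average by a small fraction of a log2 unit.

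Motif letters in the peaks were counted as a description, with no test. Outside promoters, where 480 opening, 963 closing and 5857 peaks in all were searched in their central 300 bp on both strands, the AP-1 motif TGANTCA stood in 27.9% of opening, 10.4% of closing and 15.8% of all peaks. TCF/LEF letters (CTTTGAA or CTTTGAT) went the other way and stood in 10% of opening, 29.0% of closing and 15.1% of all peaks. The T-box motif AGGTGTGA, the site of T-bet and Eomes, stood in 7.08% of opening, 1.56% of closing and 3.02% of all peaks, and the NR4A motif AAAGGTCA in 4.79% of opening, 0.727% of closing and 1.59% of all peaks. Median GC content was 47.3%, 47.0% and 48.7% in these 3 sets, so base composition was close. The NFAT letters TGGAAAA stood in 9.79% of opening, 6.23% of closing and 7.29% of all peaks, and RUNX letters (TGTGGTT) in 19.8% of opening, 23.9% of closing and 20.1% of all peaks. SP letters (GGGCGGG) stood in 3.12% of opening, 3.95% of closing and 8.57% of all peaks, and the CTCF core AGGNGGC in 15.8% of opening, 17.5% of closing and 21.0% of all peaks. Other motifs were ETS (CAGGAAGT or CCGGAAGT) in 8.96% of opening, 13.6% of closing and 12.1% of all peaks, E-box (CAGGTG, which overlaps the T-box letters where these come after cytosine, or otherwise the palindrome CAGCTG) in 31.2% of opening, 40.2% of closing and 36.1% of all peaks, and GATA factor letters (AGATAA) in 13.8% of opening, 17.5% of closing and 13.6% of all peaks. KLF letters (CCACACCC) stood in 5.62% of opening, 3.12% of closing and 4.70% of all peaks, interferon-type letters (GAAANNGAA) in 11.0% of opening, 11.9% of closing and 11.8% of all peaks, CRE letters (TGACGTCA) in 1.88% of opening, 0.935% of closing and 1.26% of all peaks, and NF-kB letters (GGGANTTTC) in 1.88% of opening, 1.77% of closing and 1.88% of all peaks. Among the calls made without Sensitized replicates 3 and 4, AP-1 letters stood in 24.9% of opening and 13.8% of closing peaks and TCF/LEF letters in 10.7% and 29.7%. In that setting T-box letters stood in 7.66% of opening and 3.32% of closing peaks, so the closing share was no longer below that of all peaks. NR4A letters stood in 5.36% and 0.332%.

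**Figure D5:**
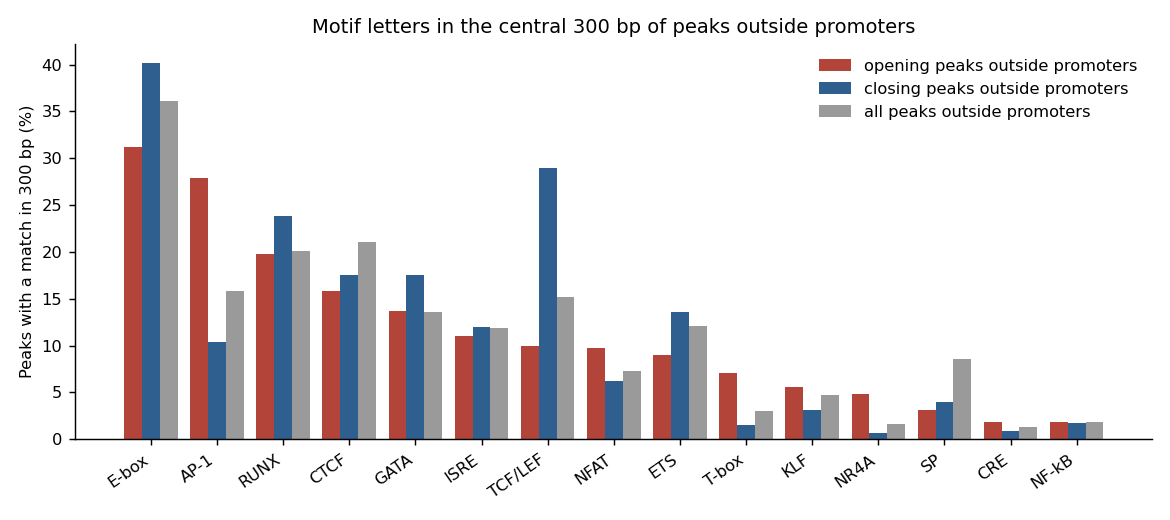
Share of peaks outside promoters that hold each motif on either strand within 300 bp around the midpoint, for opening (red), closing (blue) and all (grey) peaks. AP-1 bars stand at 27.9% and 10.4% in opening and closing peaks, TCF/LEF bars at 10% and 29.0%.

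Whether the CD73- cells differed from the other post-partum subsets was asked by setting S+P C7 directly against S+P C5 and S+P C4, each a test of the difference between 2 effects against the same Sensitized libraries. S+P C7 and S+P C5 differed at 322 peaks (2.38% of all peaks), of which 36 (0.266%) were more open and 286 (2.11%) less open in S+P C7. S+P C7 and S+P C4 differed at 1045 peaks (7.73%), 335 more open and 710 less open. Against Sensitized, S+P C5 gave 912 calls (6.74%) and S+P C4 116 (0.858%), and all 3 comparisons share the Sensitized libraries. The 286 peaks less open in S+P C7 than in S+P C5 had median normalized counts of 114 for S+P C7, against 249.8 for S+P C5, 214 in S+P C4 and 286 in Sensitized. The difference from S+P C5 is fixed by the choice of these peaks. A choice on low S+P C7 values also adds to the differences from S+P C4 and Sensitized. All 5 closing peaks of Ccr7 were also lower in S+P C7 than in S+P C5, as were 4 of 5 near Eipr1 and 3 of all 15 nearest to Foxp1. These were among the highest counts for genes with many closing peaks. Satb1, Bach2, Lef1 and Smad7 had 1 such peak each, and Wwox and Prkcq had 0. At the Ccr7 peak 8147 bp from its start S+P C5 held 261 ± 51.2 and S+P C7 114 ± 44.4 (SD, n = 4 each; -1.18 ± 0.27, adjusted p 8.55e-04). A second Foxp1 intron peak (chr6:99286093-99287091) had a mean of 510.0 ± 42.5 for S+P C5 against 177 ± 20.2 for S+P C7 (-1.53 ± 0.19, adjusted p 1.75e-11), and a Foxn3 intron peak (chr12:99295372-99295927) 282 ± 23.1 and 117 ± 18.6 (-1.28 ± 0.16, adjusted p 1.75e-11). Both Foxp1 and Foxn3 encode forkhead factors. At the Eps8l3 peak S+P C4 averaged 342 ± 176, while S+P C5 averaged 144 ± 56.3 and S+P C7 averaged 439 ± 166 (S+P C7 over S+P C5 1.61 ± 0.47, adjusted p 0.0147; not called without S+P C7 replicate 4, at 1.32 and adjusted p 0.124). By list, as a description, 10 of the 57 peaks of lymphoid homing and memory receptors were lower in S+P C7 than in S+P C5, against 2.11% of all peaks. So were 9 of the 146 of memory and stem-type regulators. For co-inhibitory receptors the numbers were 0 higher and 1 lower of 37. Cytotoxic and cytokine genes had 3 higher and 1 lower of 55, against 0.266% of all peaks higher. Tissue and inflammatory homing receptors had 0 higher and 4 lower of 42, and TGF-beta receptors and Smads 1 higher and 4 lower of 56. The 322 calls ranged from 176 without S+P C7 replicate 4 and 185 without S+P C5 replicate 1 to 605 without S+P C7 replicate 1.

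Levels in the groups outside this comparison placed the changes on a wider scale. Their libraries entered the same fit and their peak lists entered the merged peaks, so they were not independent of the choice of peaks. Over the 519 opening peaks the median normalized count was 38.6 to 44.3 in Naive, 31.0 to 34.8 in N+P C1 and 47.3 to 54.1 in N+P C5, the PD1- and PD1+CD73+ cells of mice made pregnant without a graft. It was 133 to 263 in S+P C4 and 283 to 419 in S+P C5. Over the 1086 closing peaks the Naive and N+P libraries held 376 to 463, S+P C4 173 to 381 and S+P C5 159 to 242. Naive and N+P groups thus did not overlap with S+P C5 at either set. The peak lists that the authors made for each group differed in which called peaks they held. The Sensitized and S+P C7 lists rest on the 8 libraries whose counts chose the peaks, so their shares follow in part from that choice. Opening peaks were in the S+P C7 list in 68.0% of cases and in the S+P C5 list in 80.5%, shares near those of all 13527 peaks (64.0% and 82.9%). They were in the Sensitized list in 9.63%, the S+P C4 list in 3.85% and the Naive list in 1.35%, where all peaks stood at 71.1%, 27.03% and 62.6%. Closing peaks were in the Naive list in 75.5%, the Sensitized list in 46.5%, the S+P C5 list in 25.6%, the S+P C4 list in 4.05% and the S+P C7 list in 3.31% of cases. Lists differ in length, from 3657 merged peaks for S+P C4 to 11213 for S+P C5, and S+P C4 replicate 1 held 2430890 counts in peaks.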

How the data were processed

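ATAC-Seq was measured in 25 libraries of sorted T_FGS in 7 groups, 4 of S+P C7 and 4 of Sensitized among them, taken as the labels give them. Per the submitters' processing notes and the study's methods, the authors trimmed reads with cutadapt 3.4, aligned them with Bowtie2 2.2.9 to GRCm39 (mm39), removed duplicates (Picard 2.21.8), called peaks per library with Genrich 0.6.1 in its ATAC mode, which centres on transposase cut sites, combined replicates into 1 list per group, merged the lists with bedtools 2.27.1 and counted reads with deepTools. The deposited table holds raw read counts per merged peak. The deposited peak lists hold 1 score per peak, made by the authors on pooled replicates and used here only for presence.

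The counts were normalized and tested with DESeq2 1.42.0 (R 4.3.3) in 1 fit over all 25 libraries, with Benjamini-Hochberg adjustment over 13527 peaks, at the study's thresholds (adjusted p under 0.1, absolute log2 fold change above 0.9). Library measures were compared by two-sided exact permutation tests, whose smallest p with 4 against 4 is 0.0286. Cells were prepared from individual mice per the study's methods, and the labels name no mouse for a library. Peaks were assigned to the nearest protein-coding start of the GENCODE annotation of GRCm39, which gave a gene for 13522 of 13527, and sequences were read from the GRCm39 primary assembly. Total counts in peaks were 4789587 to 15041041 in the 8 libraries compared, with a median of 281 to 853 counts per peak, so counting error was small for most peaks.

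Named peaks were the 10 of smallest adjusted p in each direction without overlap, up to 2 per list and direction, the best and the promoter peak of 20 fixed genes, genes with 4 or more called peaks, and up to 3 per direction against S+P C5. The members, lists and genes were chosen with earlier results of these data known. Alternatives were total-count and promoter-peak size factors, loess offsets, edgeR 4.0.16, a mean count of at least 50, the compared libraries alone, a replicate block, other thresholds and leaving out libraries. One alternative, without the independent filter, was added after seeing the data. S+P columns carry shared numbers, taken here to mark a mouse although the labels do not state it, and deviations of same-numbered libraries correlated (0.522 to 0.771 for S+P C7 with S+P C5, 0.0639 to 0.666 with S+P C4). The scripts were tested on simulated counts. Some named items and 1 sequence are not reported here.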

Additional observations from a re-analysis of the deposited data

Results flagged for a closer look

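A test of the difference between S+P C7 and S+P C5, that is, between their effects against Sensitized, called a number of the named peaks. Irag2, Poli, Fbxl21, Foxn3 and the first Foxp1 peak below were named for their difference from S+P C5, so that for them it is part of the choice. For 21 peaks the log2 fold change of S+P C7 over S+P C5 follows. S+P C7 was higher near Eps8l3 (1.61), Poli (0.98), Irag2 (0.91) and at the Smad7-nearest peak in an intron of Dym (0.91). It was lower at both Foxp1 intron peaks (-1.53 and -1.48), near Fbxl21 (-1.49), Foxn3 (-1.28), Il9 (-1.05), Dusp22 (-1.01) and Smad7 (-0.98). Of peaks nearest to memory and homing genes, those of Ccr7 (-1.18), Satb1 (-1.08), Lef1 (-1.06), Il7r (-1.01), Bach2 (-0.97) and Gpr15 (-1.22) were lower in S+P C7. So were peaks nearest to Tox (-1.13), Cblb (-1.18), Bid (-1.14) and Ifng (-0.98). Leaving out 1 library kept 14 to 21 of these 21 calls, the fewest without S+P C5 replicate 1 (14) and S+P C7 replicate 2 (15). The peaks of Eps8l3, Poli, Irag2, Smad7 (both), Il9, Dusp22, Il7r, Bach2, Tox, Bid and Ifng each lost their call in at least 1 of these settings.

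At 8 named peaks 1 library stood apart from the other 3 of its group by more than Dixon's 95% limit, which chance exceeds in about 1 in 20 groups. Of 198 groups of named peaks checked, 8 passed this limit, fewer than that share. S+P C7 replicate 1 was high at the Tigit intron peak (324 normalized counts), at the closing Ifng peak (265), at a Cblb peak (179) and at the Nfatc1 peak (139). S+P C7 replicate 4 was low at the closing Ets1 peak (355). Sensitized replicate 1 was low at the Rasgrp1 peak (1166) and the Maf peak (475), and Sensitized replicate 2 at the Stat5b peak (324).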

How the results depend on the processing

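Without a fold threshold, S+P C7 vs Sensitized gave 7150 calls, 3418 opening and 3732 closing, S+P C7 vs S+P C5 1208 and S+P C7 vs S+P C4 3008. Without Sensitized replicates 3 and 4 the calls against Sensitized fell to 942, 275 opening and 667 closing. Loess offsets left 239 opening peaks, 16.6% of calls against 32.3%, and the cause was not tested. Leaving out 1 library gave 1400 to 1966 calls against Sensitized, 176 to 605 against S+P C5 and 778 to 1299 against S+P C4. A replicate block gave 1633 calls against Sensitized, where the groups are different mice and deviations of S+P C7 with Sensitized correlated from -0.569 to 0.148, and there it changed no call of the 102 named peaks. It gave 443 calls against S+P C5, where it kept all 21 calls of named peaks and added 2, and 1079 against S+P C4. In these comparisons the numbers may mark a shared mouse. With promoter peaks within 500 bp the promoter share differed by 1.15 percentage points with an unadjusted exact permutation p of 0.0286, the smallest possible, against 0.0571 as reported, on either side of 0.05. The Ctla4 promoter peak (log2 fold change -0.11) turned positive without Sensitized replicate 4 (0.0718), without S+P C7 replicate 4 (0.0522) and without Sensitized replicates 3 and 4 (0.301), and ranged down to -0.25 without Sensitized replicate 1. Of the 102 named peaks, 21 lost their call without Sensitized replicates 3 and 4, 13 with loess offsets, 3 with promoter size factors and up to 5 without 1 library, and none with edgeR, total counts or an adjusted p under 0.05. The medians of T-cell receptor signaling and co-stimulatory genes were also below 0 with promoter size factors (-0.04 and -0.03) and edgeR (-0.0059 and -0.0043), and those of the myeloid and CD4 T cell markers turned above 0 without Sensitized replicates 3 and 4 (0.05 and 0.32). The low-count filter removed 0 peaks.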

Other observations

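The 3 opening peaks with the highest mean counts, chosen after their values were seen, lay apart from the other opening peaks on the count axis. A peak nearest to Esp38 held 7069.6, 6398, 6939 and 9456 normalized counts in Sensitized replicates 1 to 4 and 25437, 24248, 18464 and 16288 in S+P C7 (1.50 ± 0.54, adjusted p 0.0152). A peak on an unplaced scaffold held 4412, 5212, 5285 and 7741 and 19521, 13913, 15344 and 8181 (1.33 ± 0.65, adjusted p 0.0794), and a peak nearest to Sfi1 held 3184, 4031, 2404 and 3432 and 6989.6, 7284, 8989 and 5400.5 (1.14 ± 0.45, adjusted p 0.0301). In S+P C4 these peaks averaged 37191 ± 45039, 33914 ± 48006 and 10989 ± 10286 (mean ± SD, n = 4), so that the SD was close to or above the mean, and all 3 were also called in S+P C4 vs Sensitized. S+P C7 and Sensitized did not overlap at any of the 3, though at the scaffold peak the highest Sensitized and lowest S+P C7 values, both from replicate 4, were close. The Esp38 peak lost its call whichever 1 S+P C7 library was left out. The scaffold peak lost its call without replicate 1, 2 or 3 of either group. The scaffold and Sfi1 peaks were also not called without Sensitized replicates 3 and 4.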
